A study of Mus musculus with 9 samples.

Results

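Gulp1 and 9 genes of apoptotic cell engulfment were followed in the subcutaneous fat of WT mice and of mice with a heterozygous or homozygous endothelial knockout of AGO1. The 10 genes were taken as a named set of adaptors, receptors and bridging proteins, out of 35071 annotated genes for which transcript counts could be summed. All 10 passed the filter on low counts and are among the 17968 genes tested. Gulp1 was picked because its level was higher in both knockout groups than in WT, so its values in those comparisons are a description and carry no test. The other 9 genes were listed for their role in engulfment.

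The tissue came from C57BL/6 mice aged 24 weeks in 3 groups of 3. The labels call them Homo KO, Hete KO and WT, read here as homozygous knockout, heterozygous knockout and wild type. The series title names the WT mice as littermates. The knockout is of AGO1, an Argonaute protein that carries microRNAs to their target transcripts. No source used here gives the promoter that drives the deletion, the allele or the sex of the mice. RNA of the whole tissue was sequenced, so for every gene below fewer cells of a type and less RNA per cell cannot be told apart. The design text gives the aim as finding the transcript changes that go with a metabolic phenotype of the knockout mice.

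Dying cells expose phosphatidylserine on their surface, and phagocytes recognise it directly or through soluble bridging proteins. Gas6 and protein S bridge to the TAM receptors Tyro3, Axl and Mertk, and MFG-E8 bridges to integrins. Stabilin-1, stabilin-2 and MEGF10 are surface receptors for dying cells, and GULP1 is a cytosolic adaptor with a phosphotyrosine-binding domain that binds the tails of engulfment receptors such as stabilins and LRP1. In fat, macrophages clear dead adipocytes by this route.

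The 9 libraries held between 20843427 and 28252001 estimated counts, and no pair of libraries in a group agreed within sampling noise. Ago1 itself averaged 48.9 ± 20.1 CPM in Homo KO, where Homo KO 3 was lowest at 25.8, 57.0 ± 5.04 CPM in Hete KO and 65.7 ± 3.66 CPM in WT (normalized CPM is the count scaled to library size; SD, n = 3 each). It did not pass the test in Homo KO (adjusted p = 0.441, edgeR) or in Hete KO (adjusted p = 0.699, edgeR) against WT. By CPM every knockout library lay below every WT library, with 62.2 in Homo KO 1 against 63.4 in WT 3, while TPM overlapped. Both knockout groups lay below WT without overlap in CPM for 6.06% of all tested genes. Endothelial cells are 1 cell type of several in this tissue, and the part of the other cells in the Ago1 levels was not tested. Adipocyte and endothelial markers were present in all libraries. Skeletal muscle markers held 8.32% of the counts in Hete KO 2, 3.48% in WT 1 and 2.70% in WT 2, and at most 0.419% in the other 6 libraries. Hepatocyte markers held 0.179% in WT 2 and 0.171% in WT 3, against at most 0.0367% in the other 7.

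Gulp1 lies on chromosome 1 (GRCm38/mm10, chr1:44551511-44796838, plus strand) and has 6 transcripts in the files. The ends of 2 coding transcripts are shown because the levels of Gulp1 below were split by them. Both share exon 10. Gulp1-201, of 3138 bases and 11 exons, is spliced on to the last exon, while Gulp1-203, of 1399 bases and 10 exons, runs on past the end of exon 10 and stops there. The lower case letters are the last 30 coding bases of the shared exon, and the capitals are each transcript's own coding end with its stop codon, 72 bases at chr1:44794950-44795021 for Gulp1-201 and 87 bases at chr1:44788543-44788629 for Gulp1-203.
Gulp1-201: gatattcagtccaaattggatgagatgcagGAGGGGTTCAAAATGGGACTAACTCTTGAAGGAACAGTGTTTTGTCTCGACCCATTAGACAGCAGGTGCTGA
Gulp1-203: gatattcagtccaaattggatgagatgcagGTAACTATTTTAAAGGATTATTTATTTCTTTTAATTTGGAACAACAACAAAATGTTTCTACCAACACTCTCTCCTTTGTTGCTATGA

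Gulp1 had about the same level in both knockout groups, and WT was lower with little spread. Its level was 25.9, 22.3 and 26.2 CPM in Homo KO 1, 2 and 3, then 23.3, 27.7 and 30.6 CPM in Hete KO 1, 2 and 3, and 13.1, 12.7 and 13.1 CPM in WT 1, 2 and 3. All 6 knockout libraries were above all 3 WT libraries, and the knockout groups overlapped each other. These levels rest on 469 to 657 counts per knockout library and 314 to 368 per WT library. The means were 24.8 ± 2.17 CPM in Homo KO and 27.2 ± 3.67 CPM in Hete KO, against 13.0 ± 0.214 CPM in WT (SD, n = 3 each). The fitted log2 fold change over WT was 0.93 (SE 0.135) in Homo KO and 1.06 (SE 0.135) in Hete KO. Both comparisons use the same WT libraries. WT 1, 2 and 3 lay within 12.7 to 13.1 CPM, and their muscle share ran between 0.0222 and 3.48%. The part of muscle RNA in the Gulp1 levels was not tested beyond the fits given further below. Genes with both knockout groups above WT and no overlap made up 6.37% of all tested genes and those with both below WT 6.06%, and here the rule for picking Gulp1 used that pattern. Homo KO against Hete KO did not choose the gene, and there the difference was -0.13 on the log2 scale (SE 0.133, adjusted p = 0.961, edgeR's quasi-likelihood test).

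**Figure D1:**
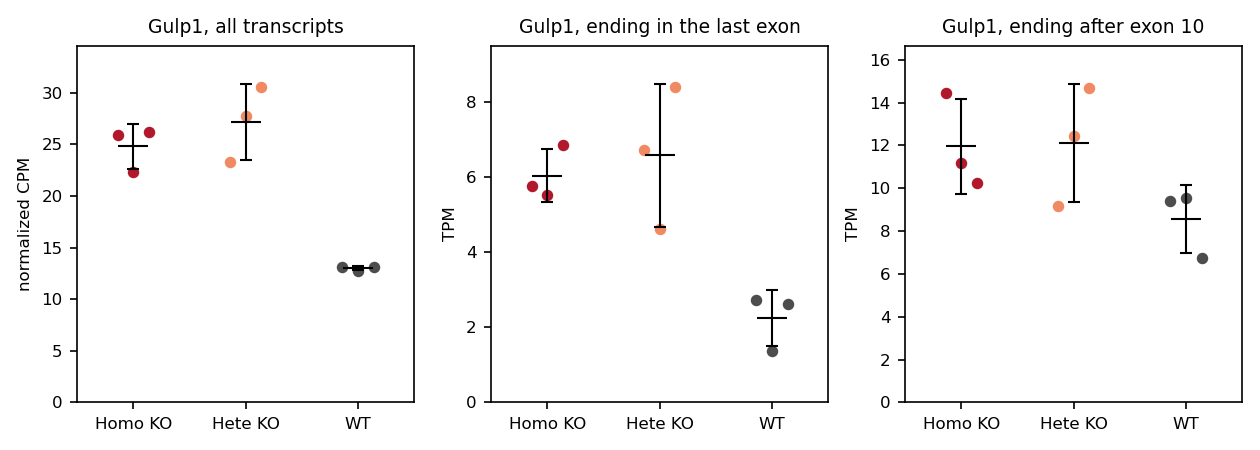
Gulp1 level in each library by group, Homo KO left, Hete KO in the middle and WT right. The left panel gives normalized CPM over all transcripts, and the other panels give TPM of transcripts that end in the last exon and of the transcript that ends after exon 10; bars are mean and SD of 3 libraries. WT lies below every knockout library in the left and middle panels, with means of 13.0 CPM and 2.24 TPM, while in the right panel Hete KO and WT overlap.

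The difference in Gulp1 was larger in the transcripts that end in the last exon than in the shorter one. Estimates for single transcripts carry an error of read assignment that the files do not give, so these values are described without a test. Gulp1-201, Gulp1-202 and Gulp1-206, which end in the last exon, together had 5.75, 5.52 and 6.84 TPM in Homo KO 1, 2 and 3, then 6.72, 4.60 and 8.403 TPM in Hete KO 1, 2 and 3, and 2.71, 1.38 and 2.63 TPM in WT 1, 2 and 3 (TPM is a level per transcript length). No knockout library reached down to WT. The means were 6.04 ± 0.706, 6.58 ± 1.90 and 2.24 ± 0.748 TPM in Homo KO, Hete KO and WT, which gives ratios to WT of 2.69 in Homo KO and 2.93 in Hete KO. Gulp1-203, which ends after exon 10, had 14.5, 11.2 and 10.2 TPM in Homo KO 1, 2 and 3, then 9.19, 12.4 and 14.7 TPM in Hete KO 1, 2 and 3, and 9.39, 9.56 and 6.73 TPM in WT 1, 2 and 3. Homo KO lay above WT without overlap, and Hete KO 1 lay within the WT range. Its ratio to WT was 1.40 in Homo KO and 1.41 in Hete KO.

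As a share of Gulp1 TPM outside the short Gulp1-204, transcripts ending in the last exon made up 32.1 ± 4.41% in Homo KO and 34.4 ± 7.25% in Hete KO, against 20.4 ± 7.02% in WT (SD, n = 3 each). The lowest knockout share, 27.0% in Hete KO 2, was above the highest WT share, 26.2% in WT 3. These shares include Gulp1-202, annotated as a target of nonsense-mediated decay, with 2.56 TPM in Homo KO 2 and 1.14 TPM in WT 3. In Homo KO 2, Gulp1-201 had 2.10 TPM and Gulp1-206 had 0.856 TPM. Without Gulp1-202 the share in Homo KO 2 would not lie above all WT shares, so the gap depends on that estimate. Gulp1-204 is an annotated stretch of 341 bases at the start of the gene, and its TPM overlapped between all 3 groups, with 8.78 to 25.9 in Homo KO, 11.1 to 55.0 in Hete KO and 4.34 to 12.1 in WT. The estimated counts behind the last-exon transcripts were 237 to 359 in Homo KO, 236 to 368 in Hete KO and 73.8 to 161 in WT.

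Since AGO1 loads microRNAs, the 3′ untranslated regions of the 2 coding ends were searched for matches to bases 2 to 8 of 20 mouse microRNAs, with sequences from RefSeq (GRCm38.p6). The microRNAs were chosen by name and not by a level in these libraries, in which microRNAs were not measured. The 19 distinct motifs, read on the transcript strand only, were CTACCTC for let-7a-5p, CGGTACG for miR-126a-3p, ATAAGCT for miR-21a-5p, ATGTAGC for miR-221-3p and miR-222-3p, AATGTGA for miR-23a-3p, CTGAGCC for miR-24-3p, ACTGTGA for miR-27a-3p, GTGCAAT for miR-92a-3p and ACAGGGT for miR-10a-5p. The others were TACGGGT for miR-100-5p, TGTTTAC for miR-30a-5p, ATGCTGC for miR-103-3p, AGCATTA for miR-155-5p, AGTTCTC for miR-146a-5p, TGAATGT for miR-181a-5p, TACTTGA for miR-26a-5p, TGGTGCT for miR-29a-3p, GCACTTT for miR-17-5p and CAGTATT for miR-200b-3p. The 1817 bases after the stop codon of Gulp1-201 held 1 of the 19 motifs, and the 245 bases of Gulp1-203 held 0. Among 5572 annotated 3′ untranslated regions, each at least as long as that of Gulp1-201 and cut to its length, the median was 3 motifs. The match was to miR-200b-3p and starts at base 803 after the stop codon (chr1:44795824-44795830), and its letters occur in 19.0% of those regions. The capitals mark bases 2 to 8 of the microRNA and their match in the transcript, and the stretch of the transcript shown is chr1:44795813-44795840.
mmu-miR-200b-3p: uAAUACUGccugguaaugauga
Gulp1-201 site: ttttatgttacCAGTATTctgtagttat

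The genes whose level ran most like Gulp1 were ranked by Pearson's r of log2 CPM across the 9 libraries, which share the 3 groups. Among 14196 genes, the 5 with the highest r were Fnbp1 (0.987), Brd8 (0.984), Lama3 (0.982), Kctd21 (0.977) and Rad9b (0.974), and Spearman's rho was between 0.817 and 0.950. Fnbp1 encodes a membrane-bending protein of endocytosis, and it had 129, 125 and 133 CPM in Homo KO 1, 2 and 3, then 130, 141 and 142 CPM in Hete KO 1, 2 and 3, and 106, 101 and 99.6 CPM in WT 1, 2 and 3. Lama3 encodes the alpha 3 chain of laminin, a basement membrane protein, and it had 15.5, 12.5 and 13.1 CPM in Homo KO 1, 2 and 3, then 13.9, 14.7 and 17.5 CPM in Hete KO 1, 2 and 3, and 6.47, 6.65 and 7.74 CPM in WT 1, 2 and 3. Both genes had every knockout library above every WT library, which the ranking favours, since Gulp1 was picked for that difference. For the other engulfment genes, r with Gulp1 was 0.33 for Mertk and between -0.61 and -0.01 for Stab2, Megf10, Gas6, Pros1 and Stab1. It was -0.67 for Tyro3, -0.78 for Mfge8 and -0.78 for Axl. These values take in the difference between knockout groups and WT for which Gulp1 was picked, so they add no separate result on these genes.

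Compared per length over coding transcripts of at least 1000 bases, the 10 genes formed an abundant and a scarce set. Mfge8 had the highest level, with a mean of 269 TPM over the 9 libraries. Gas6 at 36.3, Pros1 at 34.9 and Axl at 31.2 TPM followed, and their ranges over libraries overlapped. Mertk averaged 19.3, Gulp1 15.4 and Stab1 11.5 TPM, again with overlapping ranges. Tyro3 at 0.405, Stab2 at 0.302 and Megf10 at 0.172 TPM were the lowest.

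None of the 9 engulfment genes other than Gulp1 passed the adjusted threshold of 0.05 in either knockout group. In Homo KO against WT, 0 of 9 passed edgeR's quasi-likelihood test, where 0.0% of all 17968 genes passed. Of the 9, 1 had an unadjusted p under 0.05 there, as did 2952 of all genes. DESeq2, which called 3.63% of all genes, called 0 of the 9. Limma called 0 of all 17968 genes in each of the 3 comparisons, so its calls say nothing about the members. In Hete KO against WT, 0 of 9 passed, where 0.417% of all genes passed. There 4 of the 9 had an unadjusted p under 0.05, as did 3927 of all genes. DESeq2, which called 9.32% of all genes, called 2 of the 9 (Axl and Mfge8). The median log2 fold change of the 9 was -0.31 in Homo KO and -0.34 in Hete KO, against -0.01 and 0.02 over all genes. In Homo KO against Hete KO, 0 of 10 passed, where 0.0% of all genes passed. In that comparison 1 of 10 had an unadjusted p under 0.05, as did 978 of all genes. DESeq2, which called 0.0445% of all genes, called 0 of the 10.

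**Figure D2:**
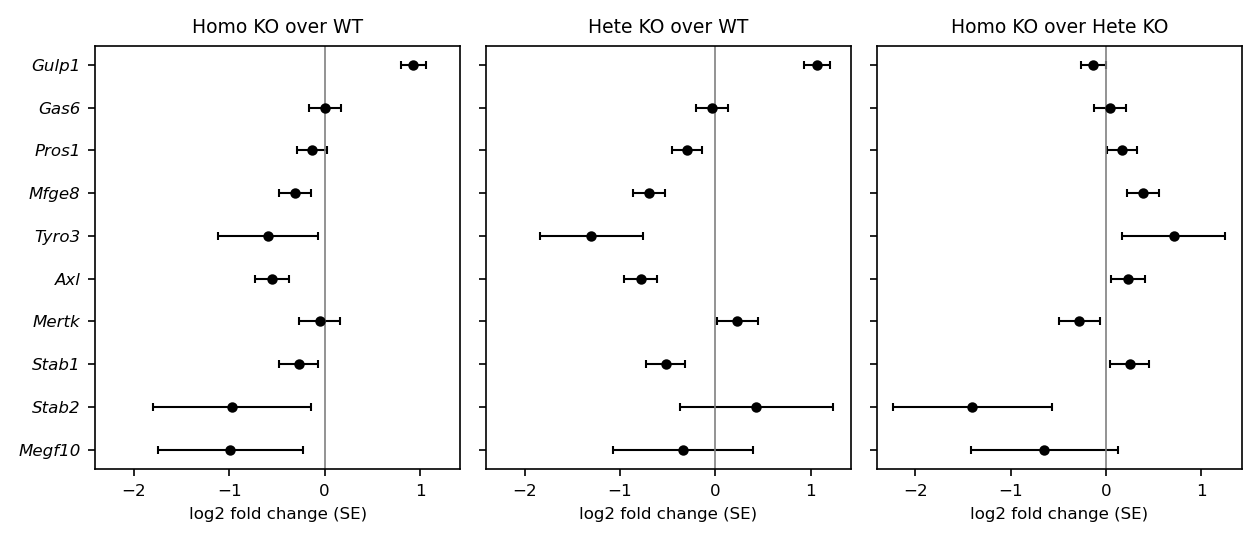
Fitted log2 fold change of the 10 genes with its SE, for Homo KO over WT, Hete KO over WT and Homo KO over Hete KO (9 libraries fitted together). Gulp1 is alone at the right in the panels against WT, at 0.93 and 1.06, Axl and Mfge8 lie left of 0 in both, and the SE is widest for Tyro3, Stab2 and Megf10.

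Of the bridging proteins, Gas6 and Pros1 had similar levels in the 3 groups, and Mfge8 was lowest in Hete KO. Gas6, the vitamin K dependent ligand of all TAM receptors (chr8:13465374-13494490, minus strand), had 69.3, 57.7 and 59.4 CPM in Homo KO 1, 2 and 3, then 76.6, 54.0 and 50.5 CPM in Hete KO 1, 2 and 3, and 53.0, 67.8 and 65.1 CPM in WT 1, 2 and 3. All groups overlapped, and the log2 fold change over WT was 0.00 (SE 0.168) in Homo KO and -0.04 (SE 0.168) in Hete KO. Pros1, protein S, which is also an anticoagulant of plasma (chr16:62854307-62929346, plus strand), had 88.8, 73.8 and 73.6 CPM in Homo KO 1, 2 and 3, then 79.6, 54.0 and 76.8 CPM in Hete KO 1, 2 and 3, and 96.9, 80.9 and 81.2 CPM in WT 1, 2 and 3. Hete KO lay just below WT without overlap in CPM, although the gene's TPM overlapped. The log2 fold change over WT was -0.13 (SE 0.157, adjusted p = 0.704, edgeR) in Homo KO and -0.30 (SE 0.158, adjusted p = 0.304, edgeR) in Hete KO.

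Mfge8 encodes MFG-E8, a secreted protein with a phosphatidylserine-binding domain and an integrin-binding motif (chr7:79133768-79149060, minus strand). It had 418, 385 and 392 CPM in Homo KO 1, 2 and 3, then 350.1, 314 and 250.3 CPM in Hete KO 1, 2 and 3, and 523, 572 and 388 CPM in WT 1, 2 and 3. All 3 Hete KO libraries lay below all others, while Homo KO overlapped the WT range at WT 3. Means were 398 ± 17.4 CPM in Homo KO, 305 ± 50.6 CPM in Hete KO and 495 ± 95.3 CPM in WT (SD, n = 3 each). Over WT it was -0.31 on the log2 scale (SE 0.168, adjusted p = 0.384, edgeR) in Homo KO and -0.70 (SE 0.168, adjusted p = 0.0728, edgeR) in Hete KO. DESeq2 gave -0.70 with an adjusted p of 0.00147 in Hete KO, where it called 9.32% of all genes. Without Hete KO 1, edgeR gave -0.79 with an adjusted p of 0.0456, where 5.18% of all genes passed. Homo KO against Hete KO differed by 0.39 on the log2 scale (SE 0.168, adjusted p = 0.899, edgeR).

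The longest coding transcript of Mfge8, Mfge8-201, had 157, 81.7 and 118 TPM in Homo KO 1, 2 and 3, then 142, 84.4 and 76.9 TPM in Hete KO 1, 2 and 3, and 230, 197 and 145 TPM in WT 1, 2 and 3. Hete KO lay below WT without overlap, and Homo KO overlapped WT. Mfge8-202 had 136 to 141 TPM in Homo KO, 97.6 to 121 TPM in Hete KO and 112 to 186 TPM in WT, and there every group overlapped WT. Transcripts annotated as retained introns took 8.0 to 43.8% of the gene's TPM, so gene levels here are given as CPM.

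Of the TAM receptors, Axl was lower in both knockout groups on average, Mertk was not, and Tyro3 was scarce. Axl, which Gas6 activates (chr7:25757273-25788705, minus strand), had 99.6, 87.3 and 89.5 CPM in Homo KO 1, 2 and 3, then 70.9, 88.6 and 76.2 CPM in Hete KO 1, 2 and 3, and 98.4, 164.5 and 143 CPM in WT 1, 2 and 3. Hete KO lay below WT without overlap, and Homo KO 1 exceeded WT 1. Means were 92.1 ± 6.52 CPM in Homo KO, 78.6 ± 9.12 CPM in Hete KO and 135 ± 33.7 CPM in WT (SD, n = 3 each). Over WT it was -0.55 on the log2 scale (SE 0.175, adjusted p = 0.215, edgeR) in Homo KO and -0.78 (SE 0.176, adjusted p = 0.0666, edgeR) in Hete KO. DESeq2 gave -0.79 with an adjusted p of 0.00103 in Hete KO.

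The Axl value depends on which WT libraries are used. Without WT 1, edgeR called Axl in Homo KO at -0.73 (adjusted p = 0.0494, where 0.824% of all genes passed) and in Hete KO at -0.95 (adjusted p = 0.0176, where 2.32% passed). Without WT 2 and WT 3, the libraries with liver transcripts, WT 1 is the lone WT library and is assumed to vary like the other groups. The log2 fold change was then -0.10 in Homo KO and -0.32 in Hete KO, neither past the threshold. The coding transcript Axl-201 had 11.6, 7.86 and 13.1 TPM in Homo KO 1, 2 and 3, then 9.70, 9.95 and 9.17 TPM in Hete KO 1, 2 and 3, and 15.8, 24.0 and 23.1 TPM in WT 1, 2 and 3, with every knockout library below every WT library. Axl-202 had 13.1 to 22.2 TPM in Homo KO, 12.4 to 17.3 TPM in Hete KO and 18.4 to 24.0 TPM in WT.

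Mertk, the TAM receptor of macrophage efferocytosis (chr2:128698956-128802894, plus strand), had 67.6, 52.2 and 54.0 CPM in Homo KO 1, 2 and 3, then 52.2, 63.7 and 95.8 CPM in Hete KO 1, 2 and 3, and 71.0, 53.6 and 55.8 CPM in WT 1, 2 and 3. The groups overlapped, and the highest library was Hete KO 3. Over WT it was -0.05 on the log2 scale (SE 0.215, adjusted p = 0.927, edgeR) in Homo KO and 0.23 (SE 0.214, adjusted p = 0.575, edgeR) in Hete KO. Tyro3, which is known from nerve cells and dendritic cells (chr2:119797733-119818104, plus strand), had 1.54, 1.09 and 1.03 CPM in Homo KO 1, 2 and 3, then 1.001, 0.969 and 0.243 CPM in Hete KO 1, 2 and 3, and 1.13, 2.69 and 1.71 CPM in WT 1, 2 and 3. These levels rest on 5 to 67 counts per library, and Hete KO lay below WT without overlap in CPM but not in TPM. The log2 fold change over WT was -0.59 (SE 0.528, adjusted p = 0.596, edgeR) in Homo KO and -1.30 (SE 0.540, adjusted p = 0.199, edgeR) in Hete KO.

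Of the other receptors, Stab1 was abundant and slightly lower in Hete KO, and Stab2 and Megf10 were near the floor of the measurement. Stab1, the scavenger receptor of sinusoidal endothelium and tissue macrophages (chr14:31139013-31168641, minus strand), had 123, 99.5 and 88.8 CPM in Homo KO 1, 2 and 3, then 92.3, 91.6 and 78.6 CPM in Hete KO 1, 2 and 3, and 102, 170.5 and 104 CPM in WT 1, 2 and 3. Hete KO lay below WT without overlap, and Homo KO overlapped WT. Over WT Stab1 was -0.27 on the log2 scale (SE 0.204, adjusted p = 0.521, edgeR) in Homo KO and -0.52 (SE 0.204, adjusted p = 0.180, edgeR) in Hete KO. Retained-intron transcripts took 69.2 to 75.4% of Stab1 TPM but 33.5 to 45.5% of its counts, and for Axl they took 59.9 to 72.6% of TPM and 10.1 to 21.1% of counts.

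Stab2, the paralogue of Stab1 in liver and lymphoid sinusoids (chr10:86841198-87008025, minus strand), had 2.67, 2.19 and 0.739 CPM in Homo KO 1, 2 and 3, then 1.19, 10.2 and 3.35 CPM in Hete KO 1, 2 and 3, and 4.89, 5.21 and 0.891 CPM in WT 1, 2 and 3. The groups overlapped, and the 3 highest libraries, Hete KO 2, WT 2 and WT 1, are the ones with over 1% muscle transcripts. In Hete KO 2, 174 of the 243 Stab2 counts fell on Stab2-205, annotated as a target of nonsense-mediated decay. The part of muscle RNA in these levels was not tested beyond the fits that leave out muscle libraries or use a muscle covariate. The log2 fold change over WT was -0.97 (SE 0.830, adjusted p = 0.578, edgeR) in Homo KO and 0.43 (SE 0.805, adjusted p = 0.803, edgeR) in Hete KO, and without those 3 libraries it was 1.06 in Homo KO. Summed markers of liver sinusoid endothelium were 6.05 to 9.58 TPM in Homo KO, 4.56 to 5.39 TPM in Hete KO and 9.39 to 13.0 TPM in WT, and their part in the Stab2 levels was not tested. Megf10, a receptor known from astrocytes and muscle satellite cells (chr18:57133090-57297467, plus strand), had 0.362, 0.618 and 0.205 CPM in Homo KO 1, 2 and 3, then 0.482, 0.885 and 0.486 CPM in Hete KO 1, 2 and 3, and 0.501, 1.64 and 0.214 CPM in WT 1, 2 and 3. These are 5 to 41 counts per library, the groups overlapped, and neither the -0.99 (SE 0.761) in Homo KO nor the -0.34 (SE 0.737) in Hete KO on the log2 scale exceeded the spread between libraries. Summed satellite cell markers were 0.595 to 1.22 TPM in Homo KO, 0.641 to 5.32 TPM in Hete KO and 0.650 to 1.98 TPM in WT, with the highest value in Hete KO 2, and their part was not tested.

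**Figure D3:**
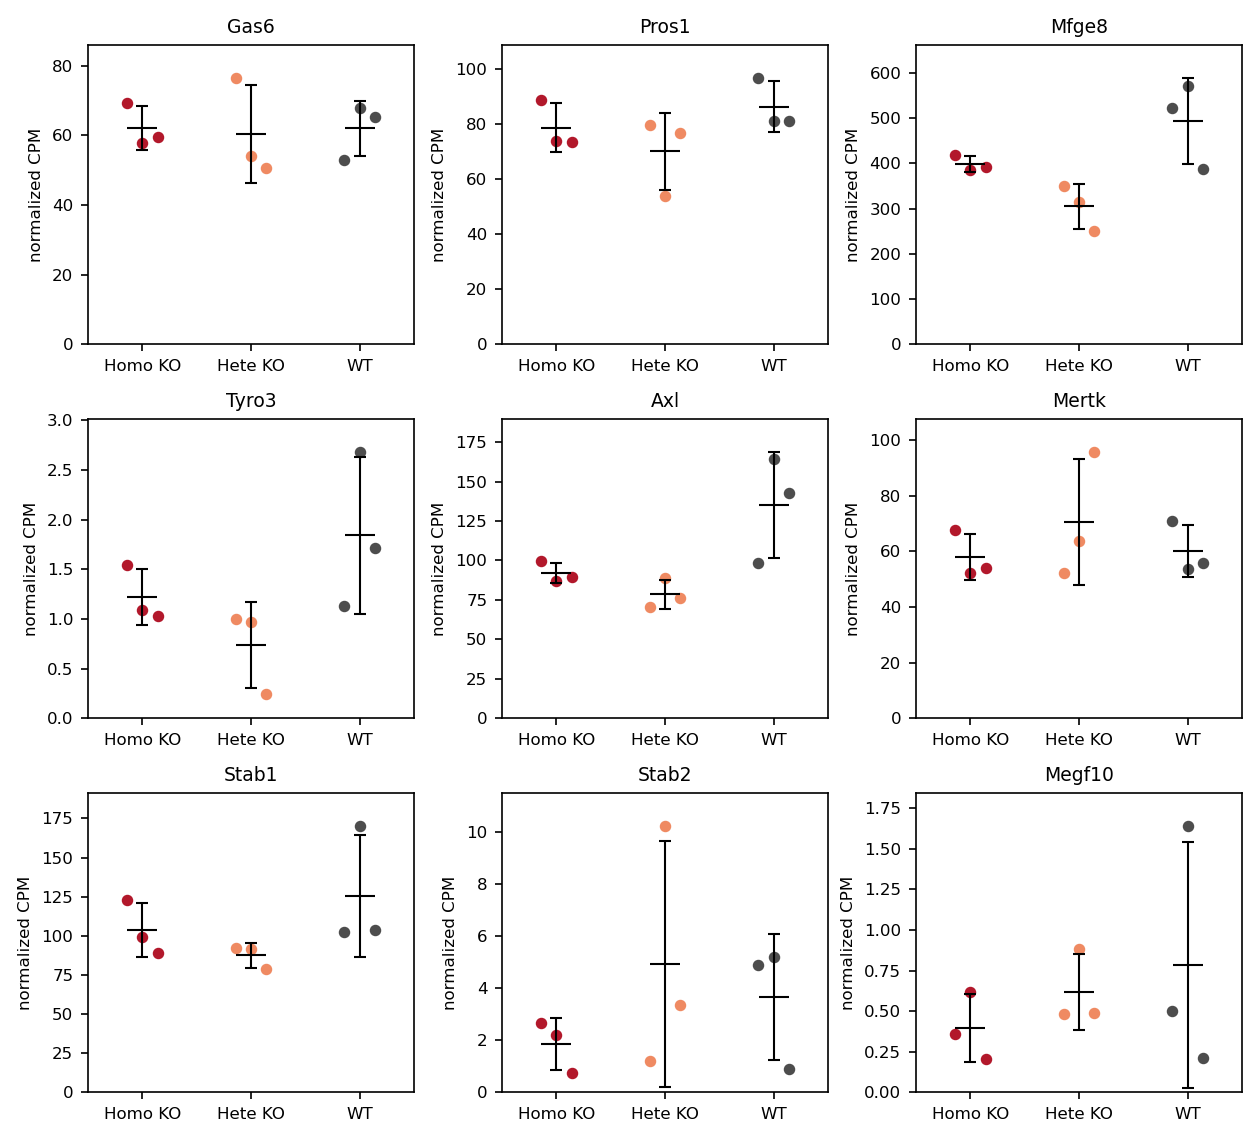
Normalized CPM of the 9 engulfment genes other than Gulp1 in each library, with Homo KO left, Hete KO in the middle and WT right; bars are mean and SD of 3 libraries, and each panel has its own axis from 0. Mfge8, Axl and Stab1 have all Hete KO points below the WT points, while Gas6 and Mertk overlap in all groups.

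Counted by overlap in CPM, 0 of the 9 genes were apart from WT in Homo KO, where 22.1% of all genes were apart. In Hete KO, 5 of the 9 (Pros1, Mfge8, Tyro3, Axl and Stab1) lay below WT without overlap, where 12.1% of all genes did, and 0 of the 9 lay above, where 12.6% did. In either direction 24.7% of all genes were apart there. By gene TPM only Axl and Stab1 of these 5 lay below WT in Hete KO, and Tyro3 lay below WT in Homo KO. Between the knockout groups, 2 of the 10 (Mfge8 and Tyro3) were higher in Homo KO without overlap in CPM, where 5.73% of all genes were, and 0 were lower, where 5.64% were. All 3 comparisons draw on shared libraries.

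Markers of macrophages and fibroblasts were lower in Hete KO libraries, beside the 5 engulfment genes named above. Each list holds genes that define a cell type, none of them an engulfment gene described here, and no macrophage or fibroblast marker was at 0. The 20 macrophage markers summed to 1084, 803 and 538 TPM in Homo KO 1, 2 and 3, then 703, 410.4 and 576 TPM in Hete KO 1, 2 and 3, and 1288, 1333 and 811 TPM in WT 1, 2 and 3. The Hete KO sums lay below WT without overlap, and the Homo KO sums overlapped WT. Marker by marker, 9 of 20 lay below WT without overlap in Hete KO by TPM, where 9.94% of all genes did, and 12 of 20 by CPM, where 12.1% did. In Homo KO 2 of 20 did by TPM, where 8.07% of all genes did, and 4 of 20 by CPM, where 11.2% did. The 11 fibroblast and progenitor markers summed to 1055 to 1401 TPM in Homo KO, 739 to 1126 TPM in Hete KO and 1253 to 1522 TPM in WT. Of these markers 8 of 11 lay below WT without overlap in Hete KO by TPM and 10 of 11 by CPM, and in Homo KO 3 of 11 did by TPM and 6 of 11 by CPM, against the same shares of all genes. The sums of the 16 endothelial markers overlapped, with 496 to 903 TPM in Homo KO, 555 to 604 TPM in Hete KO and 555 to 858 TPM in WT. Of these markers, 0 of 16 lay below WT without overlap in Homo KO by either measure. In Hete KO 3 of 16 lay below by TPM, where 9.94% of all genes did, and 2 of 16 by CPM, where 12.1% did. By CPM 2 of 16 lay above WT in each knockout group, where 10.9% of all genes did in Homo KO and 12.6% in Hete KO. The sums of the 10 adipocyte markers overlapped too, with 14832 to 18098 TPM in Homo KO, 14504 to 15895 TPM in Hete KO and 11182 to 14839 TPM in WT. Marker by marker, 2 of 10 lay above WT without overlap in Homo KO by CPM, where 10.9% of all genes did. In Hete KO 3 of 10 did by CPM, where 12.6% did. By TPM 5 of 10 lay above in each knockout group, but the share of all genes above WT by TPM is not given here. That count therefore has no background to be read against. By either measure 1 of 10 lay below in each knockout group. Of all genes, 8.07% lay below by TPM and 11.2% by CPM in Homo KO, and 9.94% and 12.1% in Hete KO. The 5 blood markers summed to 281 to 754 TPM in Homo KO and 415 to 581 TPM in Hete KO, against 960.2 to 1166 TPM in WT, below WT without overlap in both knockout groups. Sums were also below WT without overlap in Hete KO for lymphatic endothelium, liver sinusoid endothelium and mammary epithelium. By TPM 1 of 6, 3 of 6 and 0 of 12 of their markers did so, against 9.94% of all genes. In Homo KO the B cell and lymph node sum was below WT too. Most of that sum was Ighm, at 306 to 359 TPM in Homo KO and 475 to 594 TPM in WT. By CPM 2 of these 9 markers lay below WT without overlap in Homo KO, where 11.2% of all genes did. Another 2 lay above, where 10.9% did, and 7 of the 9 had a log2 fold change above 0. The part of any of these cell types in the engulfment gene levels was not tested beyond the macrophage covariate that follows and the muscle and hepatocyte covariates of the closing section.

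**Figure D4:**
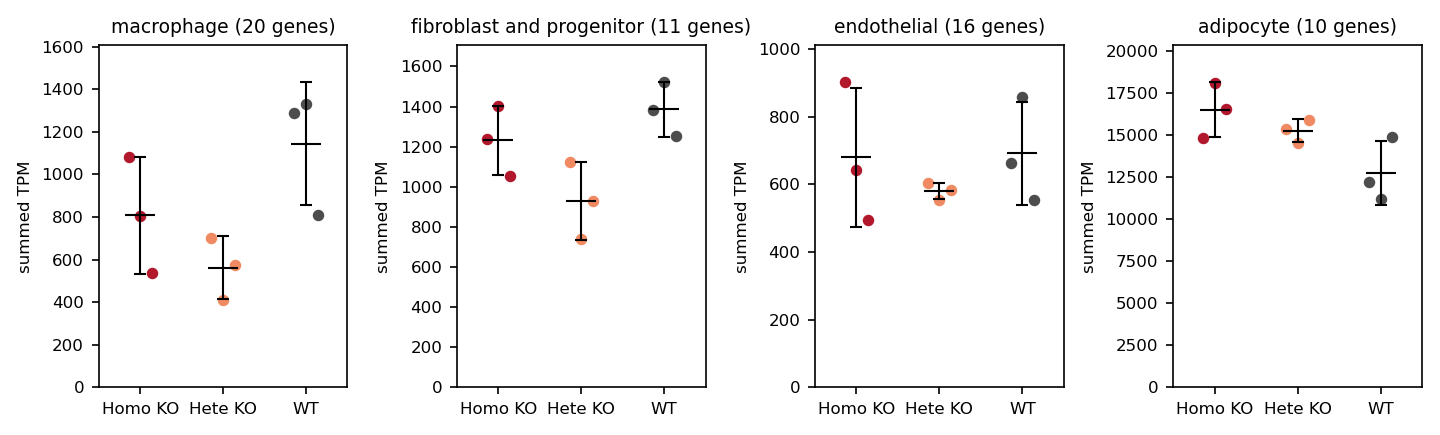
Summed TPM of 4 marker lists in each library, with Homo KO left, Hete KO in the middle and WT right; bars are mean and SD of 3 libraries. The macrophage and fibroblast sums in Hete KO lie below all WT libraries, while the endothelial and adipocyte sums overlap between the groups.

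With the macrophage level as a covariate, the Gulp1 difference from WT was 0.86 in Homo KO and 0.92 in Hete KO on the log2 scale, and Axl was -0.60 in Homo KO and -0.88 in Hete KO. Mfge8 was then -0.13 in Homo KO and -0.35 in Hete KO, and Stab1 was -0.02 in each. Mertk was 0.02 in Homo KO and 0.37 in Hete KO, and Gas6 was 0.20 in Homo KO and 0.34 in Hete KO. Gulp1 was 0.92 in Homo KO and 1.05 in Hete KO both without the muscle-transcript libraries and without the liver-transcript libraries, each of which leaves 1 WT library.

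The wider engulfment pathway was read from 8 lists with 134 genes, of which 127 were tested and none is in a marker list. In Homo KO against WT 0 of 127 passed edgeR's test, with 28 (22.0%) at an unadjusted p under 0.05, against 16.4% of all genes. In Hete KO against WT 0 of 127 were higher and 1, C1qc, was lower, and 0.267% of all genes were lower. There 38 (29.9%) had an unadjusted p under 0.05, against 21.9% of all genes. In Homo KO against Hete KO 0 of 127 passed, with 7 (5.51%) at an unadjusted p under 0.05, against 5.44% of all genes.

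Among 13 tested bridging proteins and opsonins, the median log2 fold change over WT was -0.37 in Homo KO and -0.51 in Hete KO, and 6 lay below WT without overlap in each, where 11.2% of all genes did in Homo KO and 12.1% in Hete KO. C1qc, a chain of complement C1q that opsonizes dying cells, had 25.7, 23.0 and 21.2 CPM in Homo KO 1, 2 and 3, then 18.6, 13.99 and 15.0 CPM in Hete KO 1, 2 and 3, and 36.0, 44.1 and 27.2 CPM in WT 1, 2 and 3. Every knockout library lay below every WT library. C1qc fell by 1.17 on the log2 scale in Hete KO (SE 0.188, adjusted p = 0.0426, edgeR), and in Homo KO it was -0.62 (adjusted p = 0.205, edgeR). The call was lost in 14 of 22 alternative settings, among them leaving out Homo KO 1, 2 or 3, Hete KO 2 or 3 or WT 2 (adjusted p between 0.0655 and 0.195), and with the macrophage covariate it was -0.50. Macrophages make C1q, and their summed markers were lower in the same Hete KO libraries. Their part in the C1qc result was not tested beyond that covariate. C1qa was -0.87 in Homo KO and -1.17 in Hete KO (adjusted p = 0.174 and 0.0591, edgeR), and C1qb was -0.80 in Homo KO and -1.39 in Hete KO (adjusted p = 0.216 and 0.0574, edgeR). Thrombospondin 1 (Thbs1) was -0.18 and calreticulin (Calr) -0.30 in Homo KO, and they were -0.51 and -0.39 in Hete KO.

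Among 21 other receptors the median was -0.18 in Homo KO and -0.27 in Hete KO, with 2 below WT without overlap in Homo KO, where 11.2% of all genes were, and 9 in Hete KO, where 12.1% were. In Hete KO 1 of the 21 lay above WT without overlap. Trem2, a lipid receptor of macrophages, averaged 3.48 ± 2.18 CPM in Homo KO, 2.18 ± 0.554 CPM in Hete KO and 8.14 ± 3.12 CPM in WT (SD, n = 3 each), with log2 fold changes over WT of -1.23 in Homo KO and -1.89 in Hete KO (adjusted p = 0.258 and 0.0825, edgeR). Lrp1, a receptor whose tail binds GULP1, was -0.15 in Homo KO and -0.25 in Hete KO (adjusted p = 0.578 and 0.291, edgeR). The integrin subunit Itgb5, which pairs with alpha V to bind MFG-E8, was -0.36 in Homo KO and -0.45 in Hete KO (adjusted p = 0.208 and 0.0745, edgeR). Its partner Itgav was -0.13 in Homo KO and -0.14 in Hete KO, and Itgb3 was 0.12 in Homo KO and -0.17 in Hete KO. The fatty acid and thrombospondin receptor Cd36 was 0.10 in Homo KO and -0.07 in Hete KO, and the phosphatidylserine receptor Timd4 was 0.15 in Homo KO and 0.57 in Hete KO.

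The 22 genes of the engulfment machinery inside the cell had a median of -0.04 in Homo KO and -0.14 in Hete KO. In Homo KO 3 lay below WT without overlap, where 11.2% of all genes did, and 2 above, where 10.9% did. In Hete KO 4 lay below, where 12.1% of all genes did, and 1 above, where 12.6% did. The Rac activators Elmo1 and Dock1 were -0.10 and 0.03 in Homo KO and -0.25 and 0.05 in Hete KO, and Rac1 was -0.04 in Homo KO and -0.07 in Hete KO. Arf6, a small GTPase that GULP1 has been reported to act on, averaged 29.0 ± 0.137 CPM in Homo KO, 23.4 ± 4.08 CPM in Hete KO and 39.9 ± 10.5 CPM in WT (SD, n = 3 each). Its log2 fold change over WT was -0.46 in Homo KO and -0.77 in Hete KO (adjusted p = 0.269 and 0.0745, edgeR). The 19 tested phagosome and lysosome genes had a median of -0.06 in Homo KO and -0.05 in Hete KO. Although these medians are near 0, 8 of the 19 lay below WT without overlap in Homo KO and 0 above. In Hete KO 7 lay below and 2 above, against the same shares of all genes. In each knockout group 7 of the 19 had an unadjusted p under 0.05 by edgeR, as did 16.4% of all genes in Homo KO and 21.9% in Hete KO.

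The 12 genes of cholesterol efflux and its nuclear receptors, which handle the lipid of an engulfed cell, had a median of -0.19 in Homo KO and -0.27 in Hete KO. In Homo KO 6 of the 12 lay below WT without overlap, where 11.2% of all genes did, and 0 above, where 10.9% did. In Hete KO 5 lay below, where 12.1% did, and 1 above, where 12.6% did. The cholesterol exporter Abca1 averaged 691 ± 21.9 CPM in Homo KO, 649 ± 16.6 CPM in Hete KO and 751 ± 25.6 CPM in WT (SD, n = 3 each), with log2 fold changes over WT of -0.12 in Homo KO and -0.21 in Hete KO (adjusted p = 0.565 and 0.252, edgeR). Nr1h3, the liver X receptor alpha, was -0.22 in Homo KO and -0.25 in Hete KO, and Pparg was 0.16 in Homo KO and 0.24 in Hete KO.

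The 11 tested genes of phosphatidylserine exposure had a median of 0.11 in Homo KO and 0.05 in Hete KO. In Homo KO 2 lay below WT without overlap, where 11.2% of all genes did, and 1 above, where 10.9% did. In Hete KO 1 lay below, where 12.1% did, and 1 above, where 12.6% did. The scramblases Xkr8 and Ano6 were -0.36 and 0.11 in Homo KO and 0.02 and 0.20 in Hete KO. The 17 genes of find-me and don't-eat-me signals had a median of -0.43 in Homo KO and -0.21 in Hete KO. Against the same shares of all genes, 4 lay below WT without overlap in Homo KO and 0 above. In Hete KO 5 lay below and 1 above. The don't-eat-me ligand Cd47 was 0.10 in Homo KO and 0.05 in Hete KO, and its receptor Sirpa was -0.44 in Homo KO and -0.81 in Hete KO (adjusted p = 0.272 and 0.0666, edgeR). The 12 regulators of TAM receptors and their ligands had a median of -0.07 in Homo KO and -0.14 in Hete KO. Against those shares, 0 of these regulators lay below WT without overlap in Homo KO and 2 above, and in Hete KO 3 lay below and 0 above. Among them Adam17, a protease that sheds Axl and Mertk, was -0.15 in Homo KO and -0.26 in Hete KO, and Ggcx, the carboxylase that activates Gas6 and protein S, was -0.21 in Homo KO and -0.12 in Hete KO.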

How the data were processed

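Whole subcutaneous fat was frozen and its RNA extracted with Trizol, per the labels' protocols. The deposited files hold, per the file headers, estimated counts, which are not normalized, and TPM, which the authors normalized for effective transcript length and depth. The submitters' processing notes name the build mm10. No source used here names the quantifier. Of 113193 transcripts, 111362 were matched by identifier to GENCODE M21 (GRCm38), and their values were summed per gene and rounded for testing.

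Software was edgeR 4.0.16, DESeq2 1.42.0 and limma 3.58.1 under R 4.3.3, and Python 3.11.15. After filterByExpr (minimum count 10), 17968 genes from all 9 libraries were fitted with TMM normalization and edgeR's quasi-likelihood F-test, which leaves 6 residual degrees of freedom with groups as coefficients. Tests were two-sided, with Benjamini-Hochberg adjustment over all genes. The prior count was 0.125 for fold changes and 2 for log2 CPM. The fit was tested on simulated data. Levels are CPM with TMM library sizes. The labels name replicates without saying more, so p-values measure the spread between these samples.

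The 10 genes, the pathway and marker lists and the microRNAs were chosen with earlier results of these data known. Named genes are the 10, Ago1, the 5 genes most like Gulp1 (protein-coding, mean of at least 1 CPM, named symbols), 26 pathway genes picked by role and any list member past the threshold; 1 of these is not reported here. Alternatives are given in the closing section. Counts cover counting error only, since no molecular identifiers are described.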

Additional observations from a re-analysis of the deposited data

How the results depend on the processing

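Over 22 alternatives the Gulp1 log2 fold change over WT stayed between 0.83 and 1.004 in Homo KO and between 0.92 and 1.29 in Hete KO. The ends of the Hete KO range were 0.92 with the macrophage covariate and 1.29 with a length offset. The number of the other engulfment genes called was 0 to 1 in Homo KO and 0 to 1 in Hete KO when 1 library was left out, and 2 in Hete KO with DESeq2. The causes were not tested.

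The number of all genes called against WT in Homo KO was 652 with DESeq2, 1 with no filter, 41 without muscle libraries, 2 without liver libraries, 7 with the 2 groups alone and 0 to 153 with 1 library left out. In Hete KO it was 1674 with DESeq2, 258 with no filter, 1 with the length offset, 0 with limma at pseudocounts of 0.5 and 0.1, 11 without muscle libraries, 1 without liver libraries, 0 with the macrophage covariate, 0 with muscle and hepatocyte covariates, 0 with the 2 groups alone and 0 to 958 with 1 library left out. DESeq2 called 8 between the knockout groups. With the replicate number as a block 248 genes were called in Hete KO and no engulfment gene. In their deviations from group means, same-numbered libraries correlated between -0.07 and 0.46. Differently numbered libraries of different groups correlated between -0.45 and 0.25. These values cannot tell whether same-numbered libraries share more than a number.

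The sign turned in the following values. In Homo KO against WT, Gas6 was -0.00086 with no filter, -0.017 with the length offset, -0.00998 with the replicate block, -0.0055 with the 2 groups alone and -0.066 without muscle libraries. Without muscle libraries Mertk was 0.055, Megf10 0.86, Stab1 0.0033, Stab2 1.06 and Mfge8 0.039. Without liver libraries Tyro3 was 0.11 and Stab1 0.021. With the macrophage covariate Mertk was 0.017 and Pros1 0.14, and with muscle and hepatocyte covariates Tyro3 was 0.55, Megf10 1.48, Stab1 0.43 and Stab2 0.96. In Hete KO against WT, Megf10 was 1.17 without muscle libraries. Without liver libraries Mertk was -0.0093, Gas6 0.19 and Megf10 0.30. With the macrophage covariate Gas6 was 0.34, Pros1 0.21 and Megf10 0.50, and with muscle and hepatocyte covariates Gas6 was 0.11 and Megf10 0.72. In Homo KO against Hete KO, Tyro3 was -0.048 with the length offset and Gas6 -0.041 without muscle libraries. With the macrophage covariate Gas6 was -0.14, Pros1 -0.072 and Stab1 -0.0038, and with muscle and hepatocyte covariates Megf10 was 0.77 and Stab2 0.35.

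With 1 library left out, the Homo KO values over WT ran between -0.17 and 0.092 for Mertk, -0.088 and 0.078 for Gas6, -1.45 and 0.15 for Megf10 and -0.40 and 0.017 for Stab1. The Hete KO values over WT ran between -0.032 and 0.43 for Mertk, -0.22 and 0.095 for Gas6, -0.77 and 0.81 for Megf10 and -0.71 and 0.93 for Stab2. Homo KO against Hete KO ran between -0.082 and 0.24 for Gas6. Tyro3, Stab2 and Megf10 had under 100 counts in most libraries, so small differences in them were not detectable at this depth.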
